A study of Mus musculus with 12 samples.

Results

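The constitutive proteasome subunits are the 35 mouse genes that encode the 20S core (7 α-ring and 7 β-ring subunits), the 19S regulator (6 ATPases and 11 non-ATPase subunits) and the activators PA28 and PA200 (4 genes). They were chosen by name, not by a measured value, though earlier results of these data were known. Each is a row of the deposited count table whose Ensembl identifier maps to its symbol, and all 35 were found among the 55891 rows. All 35 were detected well enough to be among the 13525 genes tested. The cells were macrophages grown from mouse bone marrow with M-CSF at 10 ng/mL for 6 days, and libraries were made from their total RNA. The KO cells carried the targeted Ptprz1 allele of strain B6.129-Ptprz1tm1Nmo, and Ptprz1 encodes a receptor-type protein tyrosine phosphatase. The WT cells have sample titles that begin with B6 and a wild-type genotype label, although the strain field gives the targeted strain for every sample. Cells of both genotypes received LPS, a bacterial cell wall component, at 100 ng/mL together with IFNγ at 10 ng/mL (LPS+IFNγ, labelled M1), IL-4 at 20 ng/mL (labelled M2), or neither stimulus (control), and the stimuli lasted 24 h. Every one of the 6 groups has 2 libraries, 12 in all. Nothing in the labels tells whether libraries that share a group stem from different mice or dishes, so each p-value reflects the scatter of these libraries alone, and that scatter may be technical.

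The proteasome degrades proteins that have been tagged with ubiquitin. The 20S core is a barrel of stacked rings in which only Psmb5, Psmb6 and Psmb7 of the β ring cut peptide bonds, and the α ring forms the gate. The 19S regulator binds ubiquitin chains, removes them, and unfolds substrates with a ring of ATPases, while PA28 and PA200 open the gate without ubiquitin or ATP. In macrophages, IFNγ is known to induce the alternative catalytic subunits Psmb8, Psmb9 and Psmb10, which replace Psmb5, Psmb6 and Psmb7 in newly built cores (immunoproteasomes), and the PA28 subunits Psme1 and Psme2, which favour peptides for MHC class I.

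Total counts ran from 13665607 to 19555600 per library, and the 35 subunits took 0.321% to 0.510% of them. Ptprz1 had 0 counts in 11 libraries and 7 counts in WT IL-4 library 2, so its RNA cannot check the KO label. Xist had 0 counts in all 6 KO libraries and 3422 to 12711 in the WT libraries, and the Y-linked gene Ddx3y had 1118 to 2335 counts in KO libraries and 0 in WT libraries: genotype and sex of the cells cannot be told apart here. All 8 macrophage markers were detected, with a summed level of 8138 to 20865 CPM, where CPM is the count scaled to a library of one common size, here corrected for composition by TMM. The marker sums of erythroid, mast, dendritic, B, and T and NK cells were under 5 CPM in each library. The 8 stromal markers, led by the collagen genes Col1a1 and Col1a2, had sums that differed by genotype and library number. In libraries 1 and 2 they came to 292 and 696 CPM in KO LPS+IFNγ libraries, 340 and 1347 CPM in KO IL-4 libraries and 351 and 850 CPM in KO control libraries. In WT cells it was at 69.0 and 195 CPM after LPS+IFNγ, 60.9 and 205 CPM after IL-4 and 65.9 and 346 CPM in control. These sums were thus higher in KO than in WT under each treatment, and higher in the library numbered 2 of every group. Not every marker followed the sum. Pecam1 had 19.4 and 3.78 CPM in KO LPS+IFNγ libraries against 21.8 and 17.9 CPM in WT LPS+IFNγ libraries. It was lower in the library numbered 2 of every group. Cdh5 was also lower in KO than in WT after LPS+IFNγ.

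Per kilobase of the principal transcript, which allows genes to be ranked, 33 of the 35 subunits have a level (Psmd4 and Psmd8 have no single principal transcript in the annotation). In WT control cells the highest levels were those of Psmb6 (101 CPM per kb), Psmd2 (89.8 CPM per kb) and Psmb5 (86.1 CPM per kb), and the lowest was that of Psme4 (15.2 CPM per kb). In WT LPS+IFNγ cells the order was headed by Psme2 (502 CPM per kb) and Psme1 (323 CPM per kb), ahead of Psmb5 (181 CPM per kb). In KO LPS+IFNγ cells the same genes led, with 619 CPM per kb for Psme2, 404 CPM per kb for Psme1 and 224 CPM per kb for Psmb5. In IL-4 cells Psmb6 came first, with 180 CPM per kb in KO and 174 CPM per kb in WT. This order depends on the length used. Per kilobase of merged exons, Psmb5 led in WT control libraries (87.2 and 85.0), Psmb6 had 42.3 and 43.4, and Psmd11 was lowest (9.47 and 10.2). In WT IL-4 libraries Psmb5 (131 and 116) then lay above Psmb6 (77.4 and 70.6). In WT LPS+IFNγ libraries Psme2 stayed first (277 and 271), with Psmb5 (181 and 181) ahead of Psme1 (162 and 163).

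After LPS+IFNγ the proteasome transcripts were higher as a set. Against control, 27 of 35 rose in KO and 30 of 35 rose in WT at an adjusted p under 0.05 (edgeR's quasi-likelihood test, Benjamini-Hochberg over all genes tested), and 0 fell in either genotype. Over all genes tested, 53.3% changed in KO (27.2% higher, 26.1% lower) and 54.3% changed in WT (27.4% higher, 27% lower). The median log2 fold change of the 35 subunits was 0.63 in KO and 0.66 in WT, against -0.01 in KO and -0.05 in WT over all genes tested. All 35 fold changes were positive in both genotypes. Both LPS+IFNγ libraries lay above both control libraries for 28 subunits in KO and for 35 in WT, while the other 7 in KO overlapped. Counts of genes without overlap were made for the subunits only, here and below. They have no share over all genes beside them and only describe these libraries.

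**Figure D1:**
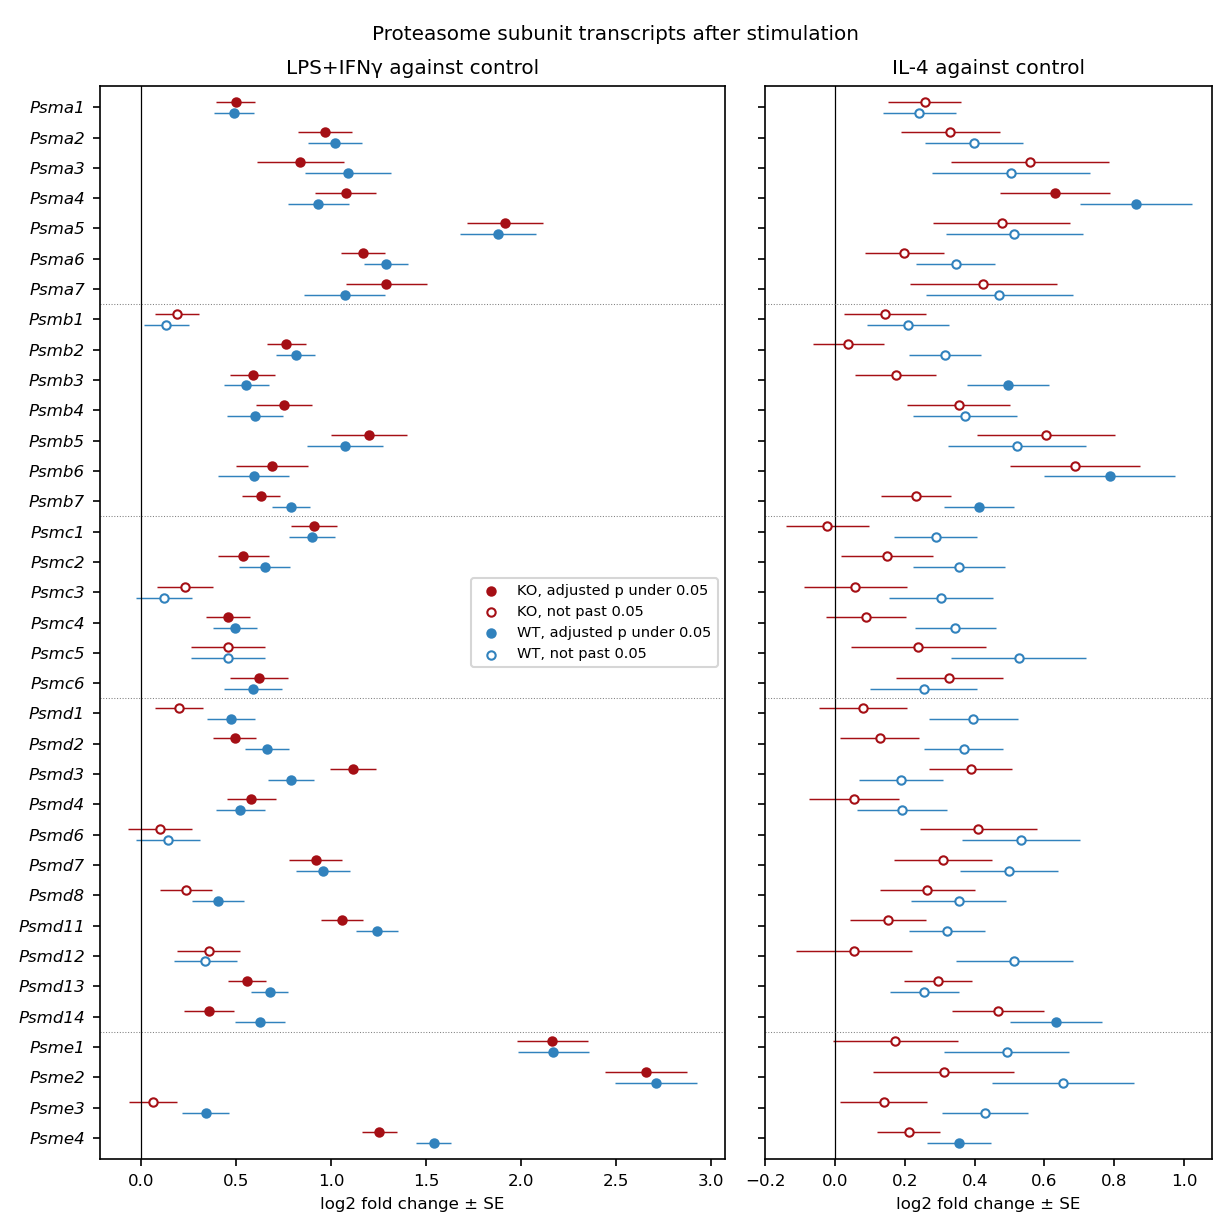
Log2 fold change ± SE of the 35 subunits (rows, grouped as α ring, β ring, 19S ATPases, 19S non-ATPases and activators) after LPS+IFNγ (left) and IL-4 (right) against control, with KO in red above WT in blue and filled points for adjusted p under 0.05. After LPS+IFNγ, Psme2, Psme1 and Psma5 stand apart at 1.88 to 2.71, and most 19S subunits lie under 1. The 2 panels have different horizontal scales.

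This count depends on how libraries are scaled. TMM factors were 0.756 to 0.833 in LPS+IFNγ libraries, against 1.09 to 1.16 in all others, so that scaling by total count alone lowers every LPS+IFNγ value: the median of all genes tested becomes -0.51 in KO and -0.55 in WT, and the median of the subunits 0.13 in KO and 0.16 in WT. On that scale 13 subunits were higher and 2 lower in KO (Psmb1 and Psme3), and 15 were higher and 2 lower in WT (Psmb1 and Psmc3). Over all genes tested, 59.4% were then called in KO and 60.8% in WT, in either direction. The sign turned negative for 12 subunits in KO and 10 in WT. Those shared by both are Psma1, Psmb1, Psmc3, Psmc4, Psmc5, Psmd1, Psmd6, Psmd8, Psmd12 and Psme3, and in KO Psmd2 and Psmd14 join them. With total-count scaling the higher calls by role, in KO and WT, were 5 and 6 in the α ring, 1 and 3 in the β ring, 1 and 1 among the ATPases, 3 and 2 among the non-ATPase subunits, and 3 and 3 among the activators. In bulk RNA, less RNA per cell and fewer cells of a type cannot be told apart.

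The activators held the largest responses. Psme1 and Psme2 encode the α and β subunits of PA28, and lie close together on chromosome 14 (GRCm38, chr14:55578123-55581529 on the plus strand for Psme1 and chr14:55587441-55591113 on the minus strand for Psme2). Psme2 had 452 and 739 CPM in KO LPS+IFNγ libraries, 105 and 129 CPM in KO IL-4 libraries and 98.9 and 90.0 CPM in KO control libraries. WT libraries gave 489 and 478 CPM after LPS+IFNγ, 120 and 113 CPM after IL-4 and 70.3 and 77.6 CPM in control. The LPS+IFNγ libraries were the 4 highest, with no overlap. Its log2 fold change was 2.66 ± 0.21 in KO (adjusted p = 8.4e-06) and 2.71 ± 0.22 in WT (adjusted p = 7.06e-06), where ± is the standard error. Psme2 has a near-identical copy, Psme2b, with 423 and 396 counts in KO LPS+IFNγ libraries against 253 and 142 in KO control libraries, and 518 and 558 counts in WT LPS+IFNγ libraries against 239 and 186 in WT control libraries, so its own counts are uncertain by reads the copies could share.

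Psme1 had 359 and 539 CPM in KO LPS+IFNγ libraries, 110 and 115 CPM in KO IL-4 libraries and 111 and 89.1 CPM in KO control libraries. In WT the values were 358 and 359 CPM after LPS+IFNγ, 118 and 107 CPM after IL-4 and 81.7 and 77.9 CPM in control. It rose by 2.16 ± 0.19 in KO (adjusted p = 1.2e-05) and by 2.17 ± 0.19 in WT (adjusted p = 1.11e-05) on the log2 scale, and its LPS+IFNγ libraries lay above all others. Psme4, which encodes PA200, a nuclear activator known for histone turnover in spermatogenesis, had 252 and 262 CPM in KO LPS+IFNγ libraries, 123 and 127 CPM in KO IL-4 libraries and 108 and 108 CPM in KO control libraries. Its WT values were 283 and 290 CPM after LPS+IFNγ, 121 and 131 CPM after IL-4 and 94.8 and 102 CPM in control. Its log2 fold change was 1.25 ± 0.09 in KO (adjusted p = 5.04e-06) and 1.54 ± 0.09 in WT (adjusted p = 1.53e-06), with the smallest adjusted p of all 35 subunits in both.

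Psme3, which encodes PA28γ, the nuclear form of PA28 not known as an interferon-induced gene, had a far smaller response. It had 90.2 and 87.7 CPM in KO LPS+IFNγ libraries, 96.5 and 91.3 CPM in KO IL-4 libraries and 74.5 and 96.1 CPM in KO control libraries. WT libraries gave 92.6 and 83.4 CPM after LPS+IFNγ, 95.9 and 91.6 CPM after IL-4 and 68.0 and 71.1 CPM in control. The WT control libraries were lowest, and KO LPS+IFNγ and KO control libraries overlapped. Its log2 fold change after LPS+IFNγ was 0.06 ± 0.12 in KO (adjusted p = 0.71) and 0.34 ± 0.12 in WT (adjusted p = 0.0432), and with total-count scaling it was -0.44 in KO and -0.16 in WT.

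**Figure D2:**
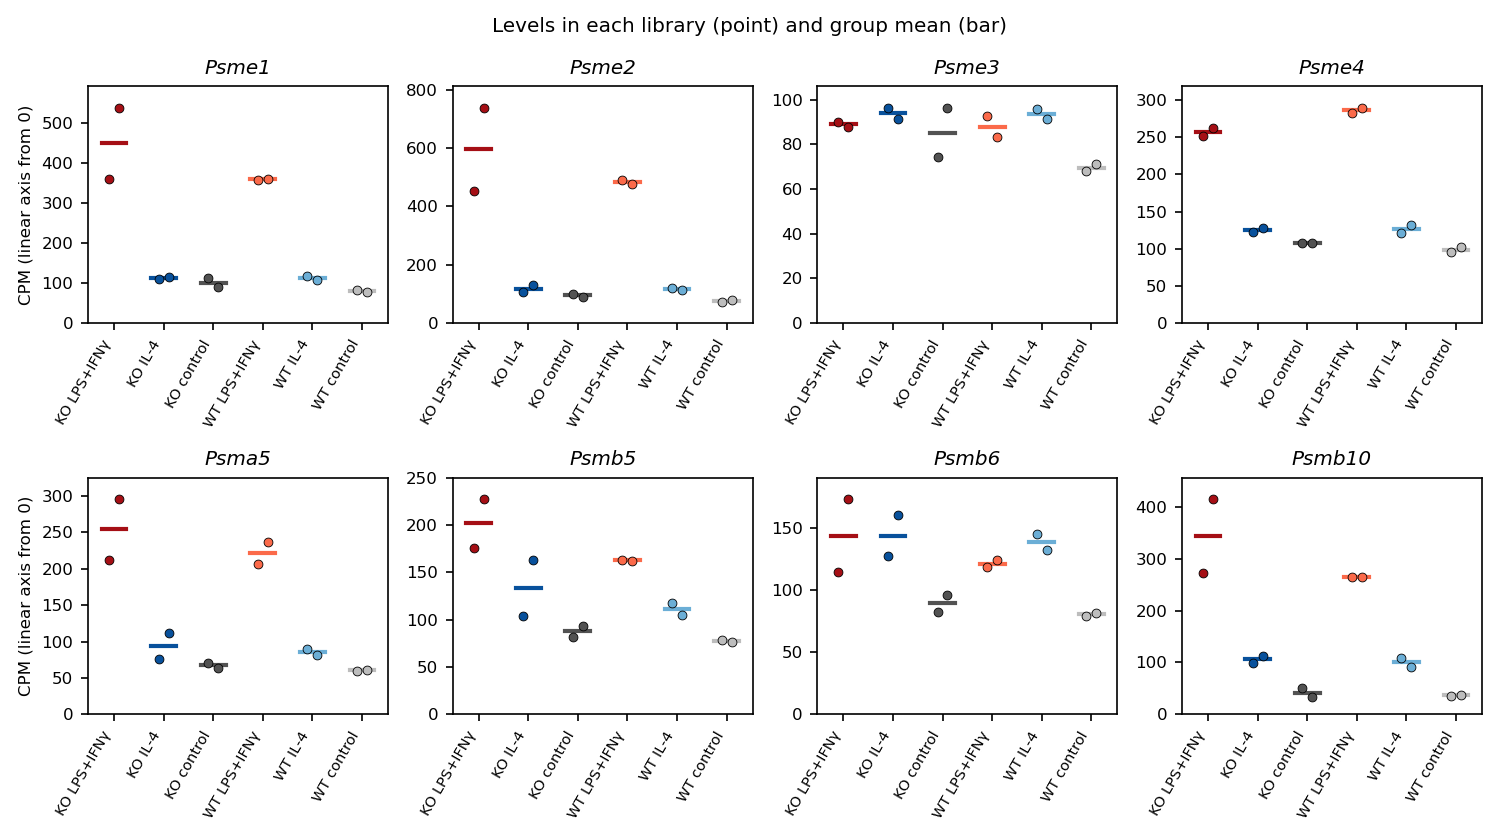
CPM of the 4 activator genes, of Psma5, Psmb5 and Psmb6, and of the inducible subunit Psmb10 in each library (points) with the group mean (bar), on linear axes from 0. Psme1, Psme2, Psme4 and Psma5 are high only in the 4 LPS+IFNγ libraries plotted, Psme3 stays between 68.0 and 96.5 CPM, and Psmb6 is as high after IL-4 as after LPS+IFNγ.

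All 7 α-ring genes rose after LPS+IFNγ in both genotypes, with a median log2 fold change of 1.07 in KO and 1.07 in WT. Psma5 had 212 and 296 CPM in KO LPS+IFNγ libraries, 76.6 and 111 CPM in KO IL-4 libraries and 70.7 and 64.2 CPM in KO control libraries. In WT the values were 206 and 237 CPM after LPS+IFNγ, 90.0 and 82.0 CPM after IL-4 and 59.0 and 61.5 CPM in control. Its log2 fold change was 1.91 ± 0.20 in KO (adjusted p = 4.17e-05) and 1.88 ± 0.20 in WT (adjusted p = 4.37e-05), which makes it the most responsive subunit of the core, and no library of one treatment overlapped the other. Psma6 had 175 and 195 CPM in KO LPS+IFNγ libraries against 80.3 and 84.4 CPM in KO control libraries, and 177 and 174 CPM in WT LPS+IFNγ libraries against 70.0 and 73.9 CPM in WT control libraries. It rose by 1.17 ± 0.12 in KO (adjusted p = 2.77e-05) and by 1.29 ± 0.12 in WT (adjusted p = 1.45e-05) on the log2 scale. Psma7 had 120 and 193 CPM in KO LPS+IFNγ libraries against 60.3 and 67.5 CPM in KO control libraries, and 121 and 124 CPM in WT LPS+IFNγ libraries against 55.3 and 61.5 CPM in WT control libraries, and rose by 1.29 ± 0.21 in KO and by 1.07 ± 0.21 in WT. The remaining 4 (Psma1, Psma2, Psma3 and Psma4) rose by 0.50 to 1.07 in KO and by 0.49 to 1.09 in WT, with Psma1 the least responsive in both.

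In the β ring 6 of 7 genes rose in each genotype, with a median log2 fold change of 0.69 in KO and 0.60 in WT. Psmb5, which carries the chymotrypsin-like activity, had 176 and 227 CPM in KO LPS+IFNγ libraries, 104 and 163 CPM in KO IL-4 libraries and 82.1 and 93.7 CPM in KO control libraries. In WT cells it was at 163 and 162 CPM after LPS+IFNγ, 118 and 105 CPM after IL-4 and 78.4 and 76.5 CPM in control. It was the most responsive β subunit, at 1.20 ± 0.20 in KO (adjusted p = 0.000771) and 1.07 ± 0.20 in WT (adjusted p = 0.00144). Psmb7, which carries the trypsin-like activity, had 125 and 133 CPM in KO LPS+IFNγ libraries, 92.0 and 104 CPM in KO IL-4 libraries and 83.5 and 83.7 CPM in KO control libraries. WT libraries gave 125 and 129 CPM after LPS+IFNγ, 101 and 95.0 CPM after IL-4 and 70.0 and 77.3 CPM in control. The log2 fold change of Psmb7 was 0.63 ± 0.10 in KO (adjusted p = 0.000585) and 0.79 ± 0.10 in WT (adjusted p = 0.000138).

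Psmb6, which carries the caspase-like activity, had 114 and 173 CPM in KO LPS+IFNγ libraries, 127 and 160 CPM in KO IL-4 libraries and 82.5 and 95.6 CPM in KO control libraries. In WT the values were 118 and 124 CPM after LPS+IFNγ, 145 and 132 CPM after IL-4 and 79.2 and 81.3 CPM in control. In WT its IL-4 libraries were the highest, and in KO the LPS+IFNγ and IL-4 libraries overlapped. Against control it rose by 0.69 ± 0.19 after LPS+IFNγ in KO (adjusted p = 0.012) and by 0.59 ± 0.19 in WT (adjusted p = 0.0235). With total-count scaling these became 0.18 in KO (adjusted p = 0.389) and 0.09 in WT (adjusted p = 0.653). The structural β subunits Psmb2, Psmb3 and Psmb4 rose by 0.59 to 0.76 in KO and by 0.55 to 0.81 in WT, and Psmb1 had log2 fold changes of 0.19 ± 0.12 in KO (adjusted p = 0.213) and 0.13 ± 0.12 in WT (adjusted p = 0.38).

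The 3 inducible counterparts, which are not among the 35, give the reference for these shifts. All 3 rose in both genotypes, and their median log2 fold change was 3.04 in KO and 2.84 in WT. Psmb8 had 512 and 828 CPM in KO LPS+IFNγ libraries, 86.2 and 119 CPM in KO IL-4 libraries and 112 and 78.6 CPM in KO control libraries. Its WT values were 487 and 535 CPM after LPS+IFNγ, 109 and 85.9 CPM after IL-4 and 86.9 and 84.3 CPM in control. The 4 LPS+IFNγ libraries of Psmb8 lay far above all others. Psmb9 had 178 and 235 CPM in KO LPS+IFNγ libraries, 20.3 and 17 CPM in KO IL-4 libraries and 29.9 and 17.1 CPM in KO control libraries. WT libraries gave 171 and 173 CPM after LPS+IFNγ, 21.5 and 18.6 CPM after IL-4 and 24.3 and 22.4 CPM in control. Its LPS+IFNγ libraries also lay far above all others, with IL-4 and control libraries close together. Psmb10 had 274 and 415 CPM in KO LPS+IFNγ libraries, 99.6 and 113 CPM in KO IL-4 libraries and 50.9 and 32.9 CPM in KO control libraries. In WT the values were 264 and 266 CPM after LPS+IFNγ, 110 and 90.9 CPM after IL-4 and 36.2 and 38.0 CPM in control. Psmb10 alone of the 3 was also called after IL-4, at 1.34 ± 0.23 in KO (adjusted p = 0.0114) and 1.43 ± 0.23 in WT (adjusted p = 0.00763). Its fold change stayed positive in 10 of 10 alternatives in each genotype, but the call was lost in KO without IL-4 library 2 (adjusted p = 0.0561) and with only the libraries compared (adjusted p = 0.133). In WT it was lost without IL-4 library 1 (adjusted p = 0.0626), without control library 1 (adjusted p = 0.0903) and without control library 2 (adjusted p = 0.0657), all by edgeR.

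As a ratio of levels per kilobase of merged exons, Psmb8 over Psmb5 was 0.775 and 0.969 in KO LPS+IFNγ libraries, 0.220 and 0.194 in KO IL-4 libraries and 0.363 and 0.223 in KO control libraries. In WT cells it was at 0.795 and 0.877 after LPS+IFNγ, 0.246 and 0.218 after IL-4 and 0.295 and 0.293 in control. The LPS+IFNγ libraries had the highest ratios, with no overlap. Psmb9 over Psmb6 was 0.797 and 0.694 in KO LPS+IFNγ libraries, 0.0820 and 0.0542 in KO IL-4 libraries and 0.186 and 0.0915 in KO control libraries. WT libraries gave 0.741 and 0.714 after LPS+IFNγ, 0.0760 and 0.0718 after IL-4 and 0.157 and 0.141 in control. For these pairs the ratio was lower in every IL-4 library than in both control libraries of the same genotype. Psmb10 over Psmb7 was 4.39 and 6.25 in KO LPS+IFNγ libraries, 2.17 and 2.17 in KO IL-4 libraries and 1.22 and 0.788 in KO control libraries. In WT the values were 4.24 and 4.12 after LPS+IFNγ, 2.17 and 1.92 after IL-4 and 1.04 and 0.987 in control. Here the IL-4 libraries lay above the control libraries, the opposite order. Whether a ratio exceeds 1 depends on the length used: with principal transcript lengths Psmb8 over Psmb5 was 1.61 and 2.01 in KO LPS+IFNγ libraries. No test was made on the ratios.

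**Figure D3:**
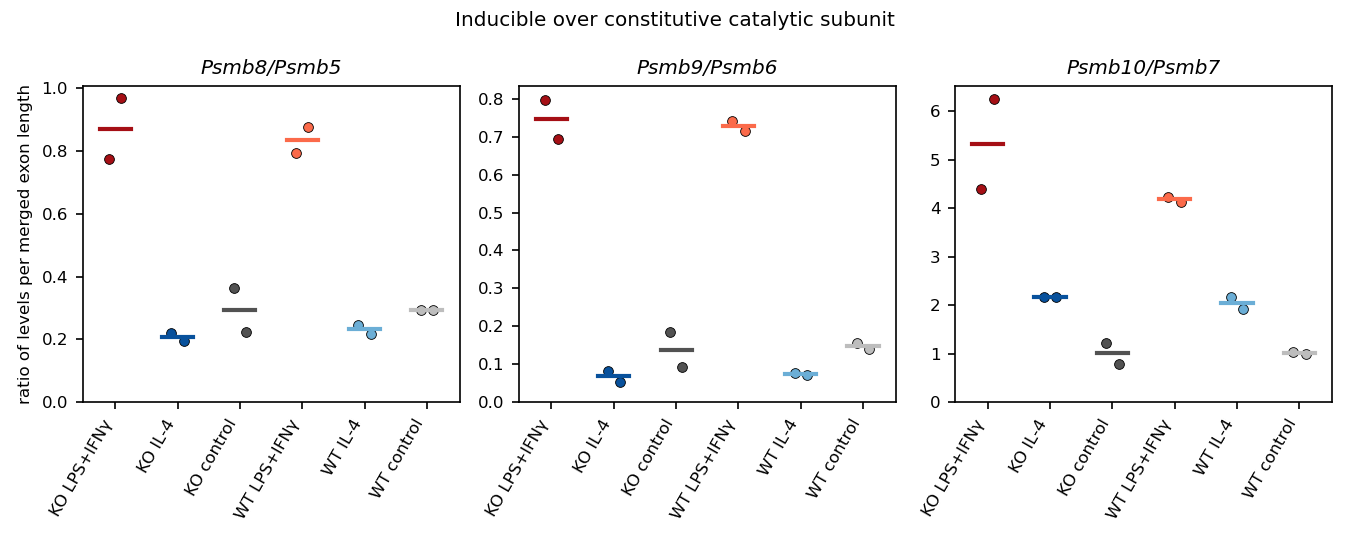
Ratio of each inducible catalytic subunit to its constitutive counterpart, as levels per kilobase of merged exons, in each library (points) with the group mean (bar), on linear axes from 0. All 3 ratios are highest in the LPS+IFNγ libraries of both genotypes, and after IL-4 only Psmb10 over Psmb7 lies above control (1.92 to 2.17 against 0.788 to 1.22).

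The 19S regulator moved less. Of the 6 ATPases, 4 rose in each genotype, with a median log2 fold change of 0.50 in KO and 0.54 in WT. Psmc1 (Rpt2, one of the subunits that dock into the α ring and open the gate) led with 0.91 ± 0.12 in KO (adjusted p = 0.000182) and 0.90 ± 0.12 in WT (adjusted p = 0.000186), and had 220 and 265 CPM in KO LPS+IFNγ libraries against 124 and 134 CPM in KO control libraries, and 217 and 203 CPM in WT LPS+IFNγ libraries against 109 and 116 CPM in WT control libraries. Psmc2, Psmc4 and Psmc6 rose by 0.45 to 0.62 in KO and by 0.49 to 0.65 in WT. Psmc3 had log2 fold changes of 0.23 ± 0.15 in KO and 0.12 ± 0.15 in WT, and Psmc5 of 0.46 ± 0.19 in KO and 0.45 ± 0.19 in WT, and neither passed the threshold.

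Of the 11 non-ATPase subunits, 7 rose in KO and 9 rose in WT, with a median log2 fold change of 0.49 in KO and 0.62 in WT. Psmd11 (Rpn6, a scaffold that clamps the regulator to the core) had 144 and 159 CPM in KO LPS+IFNγ libraries, 76.1 and 85.6 CPM in KO IL-4 libraries and 68.3 and 77.2 CPM in KO control libraries. Its WT values were 147 and 150 CPM after LPS+IFNγ, 74.9 and 81.8 CPM after IL-4 and 60.4 and 65.1 CPM in control. It rose by 1.06 ± 0.11 in KO (adjusted p = 3.78e-05) and by 1.24 ± 0.11 in WT (adjusted p = 1.36e-05), with no overlap. Psmd3 (Rpn3) rose by 1.11 ± 0.12 in KO (adjusted p = 5.14e-05) and by 0.79 ± 0.12 in WT (adjusted p = 0.000428). Psmd2, Psmd4, Psmd7, Psmd13 and Psmd14 rose by 0.35 to 0.92 in KO and by 0.52 to 0.95 in WT. Among these, Psmd4 is a ubiquitin receptor and Psmd14 the deubiquitinase that cuts chains off the substrate. Psmd1 and Psmd8 passed the threshold in WT alone (0.47 and 0.40, against 0.20 and 0.24 in KO), and the difference between genotypes was not called for either (adjusted p = 0.991 and 0.995 for the interaction). Psmd6 and Psmd12 passed in neither, at 0.10 and 0.35 in KO and 0.14 and 0.34 in WT.

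**Figure D4:**
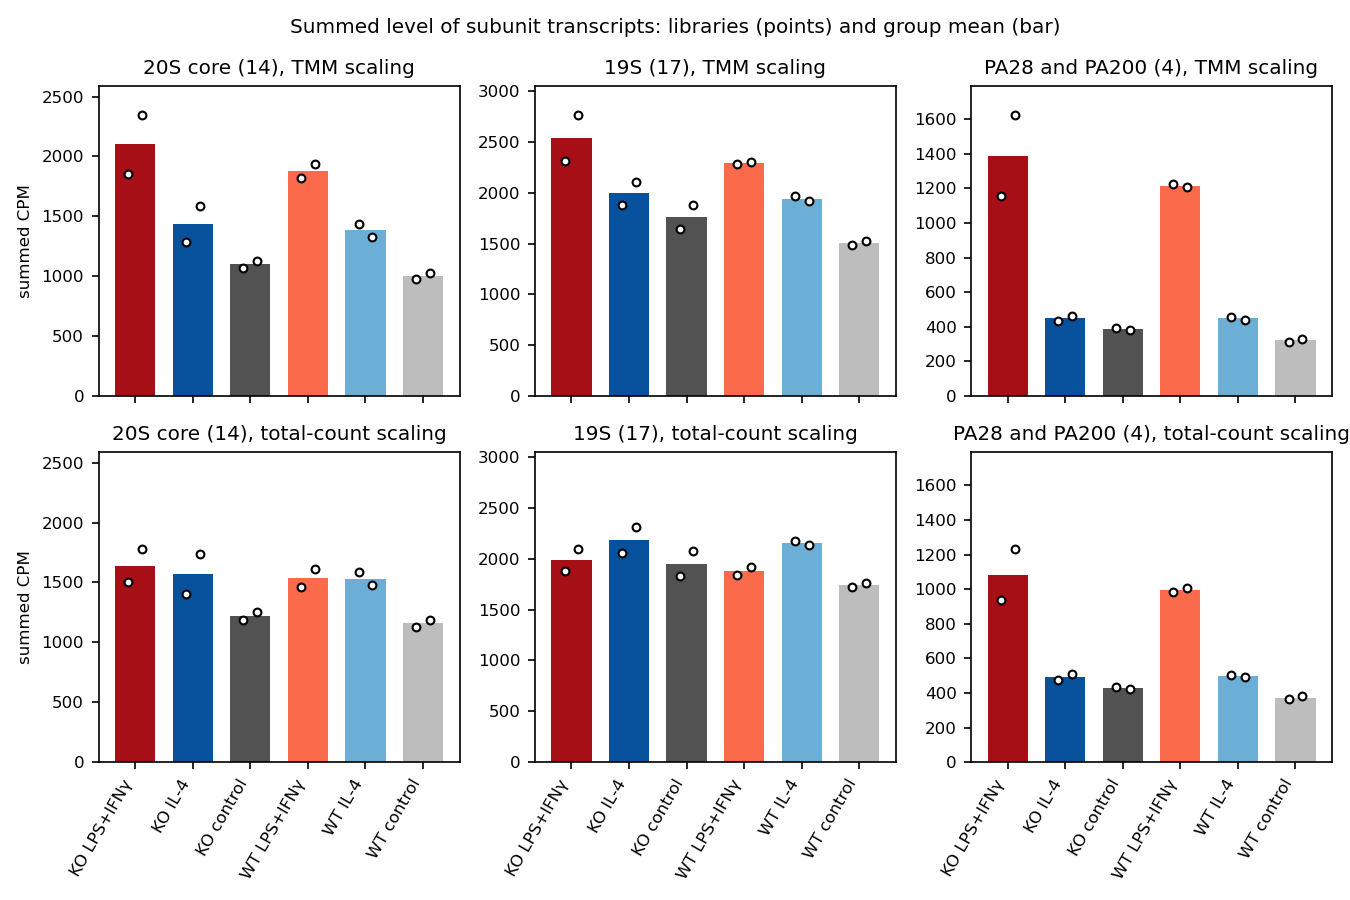
Summed CPM of the 14 core genes, the 17 genes of the 19S regulator and the 4 activator genes in each library (points) with the group mean (bars from 0), scaled by TMM (top) and by total count (bottom). With total-count scaling the 19S sum after LPS+IFNγ (1843 to 2093) overlaps control in KO (1829 and 2072), while the activator sum stays above control in every LPS+IFNγ library (937 to 1230, against 363 to 436 in control libraries).

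The summed level of the 35 subunits was 5315 and 6746 CPM in KO LPS+IFNγ libraries, 3598 and 4158 CPM in KO IL-4 libraries and 3112 and 3390 CPM in KO control libraries. WT libraries gave 5325 and 5452 CPM after LPS+IFNγ, 3856 and 3690 CPM after IL-4 and 2785 and 2876 CPM in control. In each genotype the order was LPS+IFNγ, IL-4, control, with no overlap. With total-count scaling the sums were 4316 and 5100 CPM in KO LPS+IFNγ libraries, 3936 and 4558 CPM in KO IL-4 libraries and 3455 and 3744 CPM in KO control libraries. In WT the values were 4292 and 4537 CPM after LPS+IFNγ, 4255 and 4100 CPM after IL-4 and 3213 and 3334 CPM in control. Both stimuli then still lay above control in both genotypes, and LPS+IFNγ and IL-4 overlapped in KO.

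Promoter sequence was looked up because so many of these genes moved together. The window was the 250 bases before the RefSeq transcript start (GRCm38.p6), read on both strands, and 29 of the 35 genes had an entry. Psmb1, Psmb2, Psmb7, Psmc3, Psmd3 and Psmd7 had none, so the catalytic subunit Psmb7 was not searched. Proteasome genes are known to be controlled by NRF1 (Nfe2l1) through antioxidant response elements (AREs), and interferon-induced genes are known to carry gamma-activated sequences and interferon-stimulated response elements. The ARE core TGACNNNGC was found in 4 of 29 genes (13.8%; Psmb5, Psmb6, Psmc6 and Psmd12), against 11.5% of 27025 genes with a promoter entry. The interferon-stimulated response element (GAAA, any 2 bases, GAAA) was found in 2 of 29 (6.9%; Psmb3 and Psmd4), against 3.5% of all genes. The gamma-activated sequence TTCNNNGAA was found in 0 of 29, against 8.1% of all genes, and CCAAT in 11 of 29 (37.9%), against 37.5% of all genes. No match overlapped another motif. A match is a description of letters and not a bound site, and a missing match says only that the letters are not in this window.

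Of these matches, 4 stretches are printed because they hold the ARE core of the catalytic subunits Psmb5 and Psmb6 and the matches to the interferon element found among the 29 genes. Each is on the strand of its gene, 5′ to 3′, in the GRCm38.p6 build from RefSeq, and ends before the first annotated exon base. Psmb5 is from chr14:54618023-54618245 (minus strand, capitals at positions -47 to -39 from the start), Psmb6 from chr11:70525107-70525356 (plus strand, -9 to -1), Psmb3 from chr11:97703184-97703398 (plus strand, -163 to -154) and Psmd4 from chr3:95042615-95042864 (minus strand, -80 to -71). Capitals mark the ARE core in the first 2 and, in the others, the interferon element, which there lies on the opposite strand.
Psmb5: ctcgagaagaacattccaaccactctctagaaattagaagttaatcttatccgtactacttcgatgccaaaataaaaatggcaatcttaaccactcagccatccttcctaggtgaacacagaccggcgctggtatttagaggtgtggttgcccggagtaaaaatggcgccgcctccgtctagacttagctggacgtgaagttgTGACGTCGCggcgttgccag
Psmb6: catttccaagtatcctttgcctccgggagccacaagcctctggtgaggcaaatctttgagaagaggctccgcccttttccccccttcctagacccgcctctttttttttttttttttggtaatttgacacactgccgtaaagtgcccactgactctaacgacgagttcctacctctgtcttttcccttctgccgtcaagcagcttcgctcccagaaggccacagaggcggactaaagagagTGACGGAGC
Psmb3: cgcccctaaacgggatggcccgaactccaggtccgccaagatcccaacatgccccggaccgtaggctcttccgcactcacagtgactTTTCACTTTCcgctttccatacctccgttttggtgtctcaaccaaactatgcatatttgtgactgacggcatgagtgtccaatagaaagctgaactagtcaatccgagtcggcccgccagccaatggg
Psmd4: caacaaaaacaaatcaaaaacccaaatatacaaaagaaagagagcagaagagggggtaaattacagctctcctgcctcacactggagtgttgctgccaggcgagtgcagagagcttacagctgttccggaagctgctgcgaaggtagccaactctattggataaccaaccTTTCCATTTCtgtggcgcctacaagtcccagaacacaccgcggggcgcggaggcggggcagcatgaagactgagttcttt
Of the 4 genes with the ARE core, Psmb5 rose by 1.20 in KO and 1.07 in WT after LPS+IFNγ, Psmb6 by 0.69 and 0.59, and Psmc6 by 0.62 and 0.59, while Psmd12 (0.35 and 0.34) did not pass the threshold. Psmb3 and Psmd4, with the interferon element, rose by 0.59 and 0.58 in KO and by 0.55 and 0.52 in WT. No difference between genes with and without a motif was tested. Psme1, Psme2 and Psma5, the most responsive genes, had none of the 4 motifs in this window. The Psme1 window (chr14:55578244-55578493) lies inside the annotated gene, which starts at 55578123, and 139 of its bases are exon. It therefore says nothing of the bases before the annotated start. Psme2 has 2 windows, with 92 and 12 exon bases.

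After IL-4 fewer subunits were called than after LPS+IFNγ. Against control, 1 of 35 rose in KO and 6 of 35 rose in WT, and 0 fell. Over all genes tested, 6.86% changed in KO (3.52% higher, 3.34% lower) and 9.04% changed in WT (4.92% higher, 4.12% lower). The median log2 fold change of the subunits was 0.24 in KO and 0.40 in WT, against 0.00 in KO and -0.02 in WT over all genes. With total-count scaling this median was 0.22 in KO and 0.33 in WT, above that after LPS+IFNγ on the same scale (0.13 in KO and 0.16 in WT), while with TMM it was below. With TMM, 34 fold changes in KO and 35 in WT were positive. Both IL-4 libraries lay above both control libraries for 21 subunits in KO and for 35 in WT. At an unadjusted p under 0.05, 14 subunits passed in KO and 28 in WT, and the share of all genes at this looser threshold is not given here.

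Psma4, an α-ring subunit, was called in both genotypes. It had 114 and 106 CPM in KO IL-4 libraries against 71.0 and 70.8 CPM in KO control libraries, and 131 and 116 CPM in WT IL-4 libraries against 64.2 and 71.6 CPM in WT control libraries. It rose by 0.63 ± 0.16 in KO (adjusted p = 0.0469) and by 0.86 ± 0.16 in WT (adjusted p = 0.0124). The other 5 genes called in WT were Psmb6 (0.79 ± 0.19, adjusted p = 0.0326), Psmd14 (0.63 ± 0.13, adjusted p = 0.0204), Psmb3 (0.50 ± 0.12, adjusted p = 0.0318), Psmb7 (0.41 ± 0.10, adjusted p = 0.0346) and Psme4 (0.35 ± 0.09, adjusted p = 0.043). In KO the same genes had log2 fold changes of 0.69 ± 0.19 for Psmb6 (adjusted p = 0.0591), 0.47 ± 0.13 for Psmd14 (adjusted p = 0.065), 0.17 ± 0.12 for Psmb3, 0.23 ± 0.10 for Psmb7 and 0.21 ± 0.09 for Psme4. Psmd14 had 79.8 and 101 CPM in KO IL-4 libraries against 63.4 and 67.5 CPM in KO control libraries, and 92.1 and 81.0 CPM in WT IL-4 libraries against 54.9 and 56.7 CPM in WT control libraries. Psmb3 had 56.3 and 54.9 CPM in KO IL-4 libraries against 44.8 and 53.8 CPM in KO control libraries, and 58.0 and 60.6 CPM in WT IL-4 libraries against 43.6 and 40.5 CPM in WT control libraries. Both genes were without overlap in each genotype.

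The IL-4 calls rest on few libraries. With any 1 of the 4 WT libraries compared left out, most or all calls were lost, among the subunits and over all genes tested alike. In KO the single call ended without IL-4 library 2 or without either control library. The median log2 fold change of the subunits without 1 library ran from 0.35 to 0.45 in WT and from 0.15 to 0.35 in KO. The positive direction held for 35 of 35 in WT without any of these libraries.

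Set directly against IL-4, LPS+IFNγ gave higher levels of 22 of 35 subunits in KO and 15 of 35 in WT, and lower levels of 0. Over all genes tested, 54.9% differed in KO (26.7% higher, 28.1% lower) and 56.2% in WT (28.1% higher, 28.1% lower), with a median of 0.40 for the subunits in KO and 0.33 in WT, against -0.07 in KO and -0.03 in WT over all genes. Psme2 was 2.34 ± 0.21 higher in KO (adjusted p = 1.51e-05) and 2.05 ± 0.21 higher in WT (adjusted p = 2.96e-05) on the log2 scale, followed by Psme1 with 1.99 in KO and 1.68 in WT, Psma5 with 1.44 and 1.36, Psme4 with 1.04 and 1.18, Psma6 with 0.97 and 0.94, Psmd11 with 0.91 and 0.92, and in KO Psmc1 with 0.93. The 2 stimuli did not order all genes alike: Psmb6 was at -0.00069 ± 0.19 in KO and -0.20 ± 0.19 in WT (adjusted p = 0.999 and 0.396), and Psmd6 at -0.31 ± 0.17 in KO and -0.39 ± 0.17 in WT (adjusted p = 0.144 and 0.0726). In WT both LPS+IFNγ libraries lay below both IL-4 libraries for Psmb6, Psmc3, Psmd6 and Psmd12, and in KO for Psme3. With total-count scaling the split was 7 higher and 7 lower in KO and 6 higher and 13 lower in WT, and the subunits' median was -0.09 in KO and -0.11 in WT, against -0.55 in KO and -0.47 in WT over all genes. On that scale 61.9% of all genes tested differed in KO, and the share in WT is not given here.

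**Figure D5:**
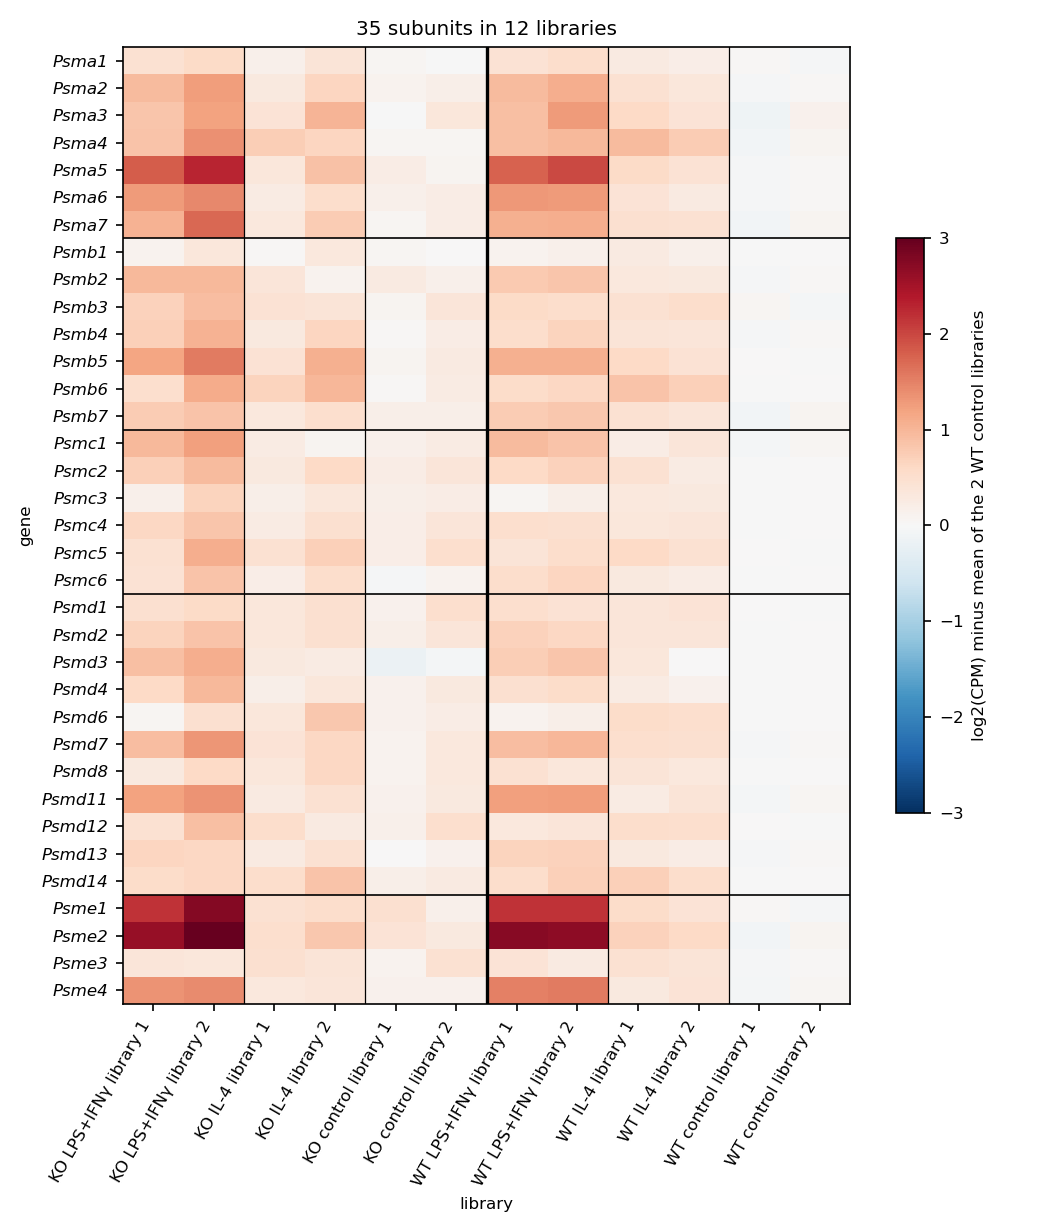
Level of each of the 35 subunits (rows) in each of the 12 libraries (columns, KO left of WT), as log2 CPM minus the mean of the WT control libraries. The LPS+IFNγ columns are darkest for Psme1, Psme2, Psme4 and Psma5, the IL-4 columns are paler, and in KO the library numbered 2 is darker than number 1 after both stimuli for most genes.

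Between genotypes, 0 of the 35 subunits was called under any treatment by edgeR or by DESeq2. Over all genes tested, 0.0739% differed in control cells, 0.0591% after LPS+IFNγ, 0.0665% after IL-4 and 0.17% on the mean over the 3 treatments. At an unadjusted p under 0.05 there were 5 subunits in control cells, 0 after LPS+IFNγ, 0 after IL-4 and 4 on the mean. This threshold is looser than that of the percentages above, and the share of all genes passing it is not given here. The log2 differences, KO minus WT, ran from -0.11 to 0.36 in control cells with a median of 0.20, from -0.16 to 0.36 after LPS+IFNγ with a median of 0.18, and from -0.17 to 0.26 after IL-4 with a median of 0.04. They were positive for 34, 31 and 27 of the 35, against a median of 0.01, 0.01 and 0.00 over all genes tested. In control cells both KO libraries lay above both WT libraries for 26 subunits and below for Psmd3, after LPS+IFNγ above for 10 and below for Psmd13 and Psme4, and after IL-4 above for 0 and below for Psma4 and Psmb3.

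The smallest unadjusted p in control cells was that of Psmd1 (Rpn2), with 141 and 184 CPM in KO against 131 and 127 CPM in WT, a difference of 0.33 ± 0.13 (adjusted p = 0.666), followed by Psmd2 (0.28 ± 0.11) and Psmc4 (0.28 ± 0.12). After LPS+IFNγ it was that of Psmb3, with 68.3 and 79.8 CPM in KO against 62.9 and 60.4 CPM in WT, a difference of 0.26 ± 0.12 (adjusted p = 0.603), followed by Psmd12 (0.36 ± 0.17) and Psmd4 (0.27 ± 0.13). After IL-4 the first were Psmb5 (0.26 ± 0.20, adjusted p = 0.98), Psmd13 (0.12 ± 0.10) and Psma4 (-0.17 ± 0.16). On the mean over treatments they were Psmc4 (0.18 ± 0.07, adjusted p = 0.409), Psmc2 (0.19 ± 0.08) and Psmd4 (0.19 ± 0.07). These p-values do not show that the genotypes are alike.

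The KO libraries of a group differed from each other more than the WT libraries did. A chi-square per gene between the 2 libraries was 53.8 for KO LPS+IFNγ, 54.9 for KO IL-4 and 48.4 for KO control, against 7.81 for WT LPS+IFNγ, 15.6 for WT IL-4 and 7.1 for WT control. The median subunit was higher in KO library 2 than in library 1 by 0.293 after LPS+IFNγ, 0.24 after IL-4 and 0.132 in control (log2), against 0.0488, -0.0794 and 0.0418 between the WT libraries, and against medians of 0.00 or -0.01 over all genes in every group. Leaving out the KO libraries of 1 number leaves a lone KO library in each group, so only directions are given. Without those numbered 1, KO minus WT was positive for 33 of 35 subunits in control cells, 31 after LPS+IFNγ, 29 after IL-4 and 35 on the mean. Without those numbered 2, it was positive for 32, 14, 3 and 20 of 35. The stromal marker sum given above is higher in the same libraries, and granulocyte markers summed to 221 CPM in KO LPS+IFNγ library 2 (S100a8 alone 220 CPM, Ly6g at 0) against at most 39.2 CPM elsewhere; their part in the genotype values was not tested.

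The response to each stimulus was compared between genotypes by the interaction. For LPS+IFNγ and for IL-4, 0 of the 35 subunits and 0 of the 13525 genes tested (0%) were called by edgeR, and 0 subunits had an unadjusted p under 0.05. DESeq2 called 6 genes for each stimulus, and edgeR with no filter on low counts called 8 for LPS+IFNγ and 23 for IL-4, none of them a subunit. The interaction, KO response minus WT response, had a median of -0.04 for LPS+IFNγ (16 positive, 19 negative) and -0.17 for IL-4 (6 positive, 29 negative). These medians rest on single libraries: for LPS+IFNγ the median was 0.14 (22 positive) without KO LPS+IFNγ library 1 and -0.20 (1 positive) without KO LPS+IFNγ library 2. For IL-4 it was -0.06 (14 positive) without KO IL-4 library 1 and -0.28 (1 positive) without KO IL-4 library 2. The smallest p for LPS+IFNγ was that of Psme4 at -0.29 ± 0.13 (adjusted p = 0.991), then Psmd3 at 0.32 ± 0.17 and Psme3 at -0.28 ± 0.18. For IL-4 it was that of Psmd12 at -0.46 ± 0.24 (adjusted p = 1), then Psmb3 at -0.32 ± 0.17 and Psmb2 at -0.28 ± 0.14. The KO and WT responses share no libraries: over the 35 genes their LPS+IFNγ fold changes had the same sign in 35 and r = 0.966 (0.907 over all genes tested), and their IL-4 fold changes had the same sign in 34 and r = 0.63 (0.545 over all genes), a description across genes, which are not independent.

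The machinery around the subunits did not move as one. Over all genes tested, 27.2% were higher and 26.1% lower after LPS+IFNγ in KO, and 27.4% higher and 27% lower in WT. Of the assembly chaperones, 8 of 9 could be tested, and 2 rose and 2 fell after LPS+IFNγ in KO, near the shares over all genes, while 5 rose and 2 fell in WT. Pomp, which matures the core, rose by 0.85 ± 0.10 in KO and 1.01 ± 0.10 in WT, and Psmd10 (gankyrin, a chaperone of the 19S base) rose by 1.45 ± 0.13 in KO and 1.26 ± 0.13 in WT, whereas Psmg2, a partner in α-ring assembly, fell (-0.89 ± 0.17 in KO and -1.25 ± 0.17 in WT). Of the 13 proteasome-associated genes, 7 rose and 4 fell in each genotype. Usp14, a deubiquitinase that binds the 19S regulator, had 45.2 and 52.3 CPM in KO LPS+IFNγ libraries, 131 and 140 CPM in KO IL-4 libraries and 94.0 and 107 CPM in KO control libraries. In WT cells it was at 45.3 and 47.2 CPM after LPS+IFNγ, 146 and 135 CPM after IL-4 and 95.1 and 95.3 CPM in control. It was lowest after LPS+IFNγ (-1.05 ± 0.11 in KO, adjusted p = 4.06e-05, and -1.04 ± 0.11 in WT, adjusted p = 3.91e-05) and highest after IL-4 (0.43 ± 0.11 in KO, adjusted p = 0.0437, and 0.56 ± 0.11 in WT, adjusted p = 0.015), without overlap.

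Of the 5 genes around NRF1, 2 rose and 1 fell after LPS+IFNγ in KO, and 3 rose and 2 fell in WT. Over all genes tested, 27.2% were higher and 26.1% lower in KO, and 27.4% higher and 27% lower in WT. Nfe2l1 itself had 478 and 515 CPM in KO LPS+IFNγ libraries, 203 and 218 CPM in KO IL-4 libraries and 190 and 181 CPM in KO control libraries. WT libraries gave 491 and 442 CPM after LPS+IFNγ, 188 and 150 CPM after IL-4 and 191 and 184 CPM in control. It rose by 1.42 ± 0.13 in KO (adjusted p = 1.57e-05) and by 1.31 ± 0.13 in WT (adjusted p = 2.3e-05) after LPS+IFNγ, while Ddi2, the protease that activates NRF1, fell (-0.45 ± 0.10 in KO and -0.63 ± 0.10 in WT). All 8 genes of MHC class I peptide supply rose in both genotypes, led by the peptide transporter Tap1 at 4.35 ± 0.30 in KO and 4.48 ± 0.30 in WT. With total-count scaling, 7 of these 8 were higher in each genotype, and the associated genes counted 0 higher and 6 lower in KO and 2 higher and 5 lower in WT. The chaperones then counted 2 higher and 2 lower in each genotype, and the genes around NRF1 1 higher and 2 lower. On that scale 59.4% of all genes tested were called in KO and 60.8% in WT, in either direction. After IL-4, Pomp, Adrm1 and Rad23b rose in WT (0.56, 0.48 and 0.44), and Nlrc5, the MHC class I transactivator, fell in KO by 1.03 ± 0.21 (adjusted p = 0.0217).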

How the data were processed

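Libraries of 12 samples in 6 groups were analysed, made with a strand-preserving NEBNext kit per the labels' protocols. The deposited table holds estimated counts per Ensembl gene as whole numbers. Per the submitters' processing notes the authors used FastQC 0.11.9, Salmon 1.10.2, DESeq2 1.45.3 and R 4.4.1 with build GRCm39. Annotation and strand setting: not given in the sources used here. From the counts as deposited, edgeR 4.0.16 (limma 3.58.1, R 4.3.3) was fitted with 1 coefficient per group over all 12 libraries, after edgeR's filter on low counts (13525 of 55891 genes kept) and TMM scaling. Its two-sided quasi-likelihood test with Benjamini-Hochberg adjustment over all genes tested was read at 0.05, and the script was tested on simulated data. The simulation changed a small share of genes, in WT LPS+IFNγ alone. It therefore does not test the scaling on which the LPS+IFNγ counts depend. A standard error is the log2 fold change divided by the root of the test's F. The spread came from 6 residual degrees of freedom shared by all groups, so KO and WT contrasts got similar standard errors. KO libraries of a group differed more than WT libraries, so the errors may be too small for KO and too large for WT. With only the libraries compared, LPS+IFNγ against control gave 21 calls in KO and 32 in WT. Over all genes tested, 41.4% were then called in KO and 69% in WT.

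Symbols, lengths and coordinates are from GENCODE M21 and RefSeq on GRCm38, matched by gene identifier and not converted. Exon bases are shared with a gene on the same strand for 2 subunits and on the opposite strand for 8, whose counts are uncertain to that extent, Psma4, Psma5, Psmb5, Psmb7 and Psme1 among them. Besides Psme2b, the 4 other named copies in the table had at most 6 counts each over all libraries. Protein sequences were not used here. The subunits and gene lists were chosen with earlier results of these data known. Named with values were the 6 called subunits with the largest change per stimulus contrast, the activators and the catalytic subunits, and for genotype contrasts the 3 smallest p-values. Genes named beyond these, such as subunits that missed the threshold, were picked after their values were seen. Alternatives were total-count scaling, DESeq2 size factors, the DESeq2 1.42.0 Wald test, no filter, only the libraries compared, the replicate number as a block and leaving out each library; leaving out the KO libraries of 1 number and principal transcript lengths were chosen after seeing the data. Gene lengths enter only the values per kilobase.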

Additional observations from a re-analysis of the deposited data

How the results depend on the processing

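Calls for LPS+IFNγ against control kept within 1.5 times under each alternative but total-count scaling, which gave 15 in KO and 17 in WT, turned Psme3 to -0.44 in KO and -0.16 in WT, gave 14 calls for LPS+IFNγ against IL-4 in KO, and turned that contrast's median to -0.091 in KO and -0.11 in WT, with Psmb7 at -0.088 in KO and -0.061 in WT. Without 1 library, the subunits' median for LPS+IFNγ against control ran from 0.56 to 0.76 in KO and 0.64 to 0.69 in WT (log2). With only the libraries compared, LPS+IFNγ against IL-4 gave 12 calls in KO and 23 in WT (21 higher, 2 lower). Over all genes tested, 43% were then called in KO and 66.9% in WT, in either direction. IL-4 calls moved most. In WT they were 12 with DESeq2, 10 with no filter and 32 with only the libraries compared (all genes: 16%, 7.42% and 27.9%). In KO they were 0 with DESeq2 size factors, 2 with total-count scaling and 3 with DESeq2 (all genes: 6.94%, 6.6% and 13.8%). With no filter they were 4 in KO, and with only the libraries compared 0 (all genes: 7.09% and 0.0637%). They also moved without 1 library, as described above, and in KO without the KO libraries of 1 number. Same-numbered libraries deviated together to a degree: the correlations of their deviations were positive for all 15 pairs of groups and over 0.1 for 14, from 0.0464 to 0.337. The 1 pair below 0.1 was KO IL-4 with WT IL-4 (0.0464), which lies between genotypes. Between groups of the same genotype the correlations ran from 0.195 to 0.337. The labels tie no number to a shared animal or day, and the main fit did not treat the numbers as a pairing. The block used next is 1 effect of number common to both genotypes, so a pairing within a genotype was not tested. The edgeR fit with the replicate number as a block gave 2 IL-4 calls in KO (all genes: 8.73%), where Psmb6 was then called (adjusted p = 0.0335). It left Psme3 uncalled after LPS+IFNγ in WT (adjusted p = 0.0523) and moved no other count by over 1.5 times. Between genotypes, 0 to 1 subunit was called after LPS+IFNγ without 1 library, and without the KO libraries numbered 1 there were 6 calls in control cells, 16 after LPS+IFNγ, 1 after IL-4 and 22 on the mean.

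Some single genes changed sign. Without 1 library, Psme3 ranged from -0.11 to 0.26 for LPS+IFNγ in KO. For IL-4 in KO, Psme1 ranged from -0.015 to 0.34, Psme3 from -0.033 to 0.30, Psmb8 from -0.17 to 0.38 and Psmb9 from -0.72 to 0.12. For LPS+IFNγ against IL-4 in KO, Psmb6 ranged from -0.33 to 0.26, and was 0.035 with DESeq2 size factors, 0.035 with DESeq2 and 0.0044 with only the libraries compared. For KO against WT after IL-4, Psmb5 ranged from -0.090 to 0.55. The cause of these changes was not tested. A lone library left in a group is assumed to vary like the other groups. With 2 libraries a group, 3 counts correspond to 0.138 to 0.290 CPM, far under every subunit.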
